A study of Mus musculus with 12 samples.

Results

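The genes described here are the matrix metalloproteases (Mmp), the Adamts proteases and their tissue inhibitors (Timp), taken as every protein-coding gene whose symbol is Mmp, Adamts or Timp followed by a number (with a or b for Mmp1). The rule found 46 of the 57180 genes in the tables, made up of 23 Mmp, 19 Adamts and 4 Timp genes. They were measured by bulk RNA sequencing of spinal cord from female C57BL/6J wild type mice, 7 days after a clip-compression injury at T9-T10, in the lesion and a short margin of cord above and below it. OVX8_SCI7 mice were ovariectomised 8 weeks ahead of the injury and OVX2_SCI7 mice 2 weeks ahead of it, while SCI7 mice were injured and kept their ovaries. Each group holds 4 mice, given in the labels as biological replicates, and every mouse in the 3 groups was injured. Uninjured cord and sham-operated mice were not analysed here, and the operation itself, the loss of ovarian hormones and the time since the operation cannot be told apart. Every label gives an age of 8 weeks without saying at which event, so age at injury may differ between the groups.

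Matrix metalloproteases are zinc enzymes that cut collagens, laminins and other matrix proteins, and most are made as inactive precursors that a further protease has to open. Adamts enzymes are secreted relatives that carry thrombospondin repeats, and several of them cut the chondroitin sulphate proteoglycans that fill the matrix of the central nervous system. The 4 Timps bind the active site of matrix metalloproteases and block it, and Timp3 also blocks Adamts enzymes. In injured spinal cord these enzymes are known for opening the blood-spinal cord barrier, for letting leukocytes through and, later, for remodelling the scar.

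Of the 46 genes, 10 Mmp genes lie on chromosome 9 (Mmp1a, Mmp1b, Mmp3, Mmp7, Mmp8, Mmp10, Mmp12, Mmp13, Mmp20 and Mmp27). The sequence at their start sites differs from that of the other members for which a promoter window was found. Adamts7, Adamts8 and Adamts15 also lie on chromosome 9, but matched no window. RefSeq promoter windows of the GRCm38.p6 build, running from 250 bases before to 50 bases after a start site, matched 32 members with 35 windows. The AP-1 motif, to which Fos and Jun proteins bind, was searched as TGACTCA or TGAGTCA on both strands. It was found in windows of 7 members, all of them on chromosome 9 (Mmp1a, Mmp1b, Mmp3, Mmp7, Mmp10, Mmp12 and Mmp13), against 5.2% of 32851 windows of all genes. The windows of the 10 chromosome 9 Mmp genes held 37.67 to 52% G and C, and those of the 22 other members with a window 53.33 to 80%. The GC box GGGCGG, searched on both strands, was in windows of 18 members, none of them among the 10, against 35.66% of all windows. The oestrogen response element GGTCANNNTGACC was in no member window and in 0.07% of all windows, which says only that these letters are not in these windows.

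Stretches of 120 bases upstream of the start are printed for 4 AP-1 bearing genes whose levels are described below and for 2 genes that passed the test (Mmp15 and Mmp28), to show the contrast between both promoter kinds. Mmp17, which also passed the test, matched no window. Capitals mark AP-1 in the first 4 and the GC box in the last 2, where CCGCCC is the GC box read on the other strand. They lie at chr9:7445702-7445821 on the plus strand (Mmp3), chr9:7502222-7502341 on the plus strand (Mmp10), chr9:7347254-7347373 on the plus strand (Mmp12), chr9:7272394-7272513 on the plus strand (Mmp13), chr8:95352176-95352295 on the plus strand (Mmp15) and chr11:83463041-83463160 on the minus strand (Mmp28). Each is written 5′ to 3′ along its gene, and that of Mmp12 comes from the window of this gene that holds the motif.
Mmp3: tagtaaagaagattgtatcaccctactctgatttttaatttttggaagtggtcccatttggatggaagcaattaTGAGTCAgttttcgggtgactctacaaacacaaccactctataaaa
Mmp10: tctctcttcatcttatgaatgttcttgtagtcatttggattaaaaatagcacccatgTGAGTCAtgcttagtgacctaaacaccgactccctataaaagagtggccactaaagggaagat
Mmp12: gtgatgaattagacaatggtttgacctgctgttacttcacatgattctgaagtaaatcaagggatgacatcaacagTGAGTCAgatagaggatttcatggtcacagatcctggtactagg
Mmp13: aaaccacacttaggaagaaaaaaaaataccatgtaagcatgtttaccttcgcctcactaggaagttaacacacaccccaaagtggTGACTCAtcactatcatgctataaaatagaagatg
Mmp15: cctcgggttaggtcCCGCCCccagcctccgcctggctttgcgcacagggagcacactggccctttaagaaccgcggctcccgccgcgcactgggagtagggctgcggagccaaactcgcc
Mmp28: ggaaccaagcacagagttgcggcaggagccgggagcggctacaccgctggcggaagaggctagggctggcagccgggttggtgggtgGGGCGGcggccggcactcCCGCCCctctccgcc
The first base of the AP-1 motif lay 46 bases before the start in Mmp3, 63 in Mmp10, 44 in Mmp12 and 35 in Mmp13. A match is a description of the letters and not a site shown to be bound.

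Library totals ran from 18222768 to 31781740 estimated counts, so that 3 counts, used here as the floor of detection, equal 0.0931 to 0.164 CPM (counts relative to the library size, which was scaled by TMM). The libraries differed along with the groups in measures that are not those of these genes. Mitochondrial transcripts took 2.2 to 3.36% of counts in OVX8_SCI7, 2.36 to 8.33% in OVX2_SCI7 and 5.35 to 9.35% in SCI7. The Spearman correlation of gene level, relative to the mean of the 12 libraries, with transcript GC content ran from 0.18 to 0.87 in OVX8_SCI7, from -0.44 to 0.54 in OVX2_SCI7 and from -0.85 to -0.53 in SCI7. OVX2_SCI7 replicate 1 held the -0.44 and the 8.33%, and replicate 2 held 877 summed TPM of sensory neuron markers, against 51.7 to 274 in the other 11 libraries. In spinal cord tissue the markers of astrocytes, oligodendrocytes and neurons were present in every library, with summed levels of at least 3212, 10646 and 511 TPM.

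Every member other than Mmp1a had reads in at least 1 library, and a few members carried most of the signal. TPM (transcript abundance relative to library size and transcript length, so that genes can be compared) is used for levels, and CPM for the tests. Timp2, which blocks active metalloproteases and also takes part in opening Mmp2, had the highest mean level over the 12 libraries at 349 TPM, followed by Mmp14 at 280.3, Timp3 at 127, Mmp12 at 86.3, Mmp2 at 79.3 and Timp1 at 71.2 TPM. Adamts4 was the highest Adamts gene at 45.2 TPM, ahead of Adamts1 at 32.5 and Adamts10 at 30.6 TPM. After a filter on low counts 39 members could be tested, which were 18 Mmp, 17 Adamts and all 4 Timp genes. The other 7 members (Mmp1a, Mmp1b, Mmp7, Mmp20, Mmp21, Adamts13 and Adamts18) stayed at or under 0.26 TPM in every library. Mmp1a had 0 counts in all 12 libraries, which allows no more than the floor, a limit that takes in counting error alone.

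**Figure D1:**
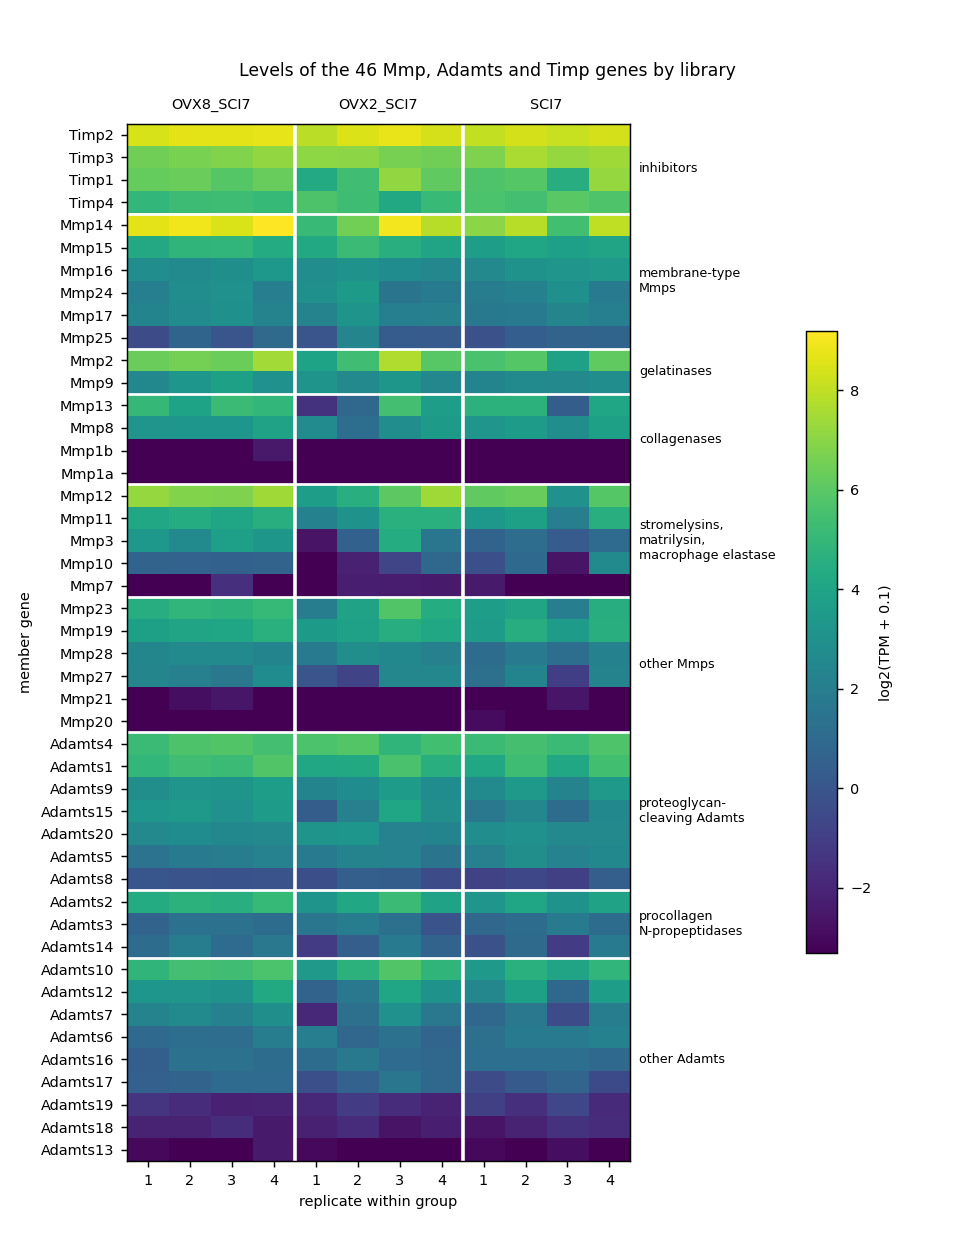
Level of each of the 46 genes (rows, grouped by role) in each library (columns, 4 replicates a group), as log2(TPM + 0.1). Timp2 and Mmp14 are the brightest rows, and Mmp14, Mmp2, Mmp12 and Mmp13 are darker in OVX2_SCI7 replicates 1 and 2 and in SCI7 replicate 3.

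Summed over the 23 Mmp genes, the level was 794, 874, 752 and 1131 TPM in OVX8_SCI7 replicates 1 to 4, 142, 283, 1003 and 604 TPM in OVX2_SCI7 and 359.6, 509, 138 and 548 TPM in SCI7. All 4 OVX8_SCI7 sums lay above all 4 SCI7 sums, and the OVX2_SCI7 sums spread over most of the range of the 12 libraries. The means were 888 ± 170.2 TPM in OVX8_SCI7, 508 ± 383 in OVX2_SCI7 and 389 ± 186 in SCI7 (SD, n = 4 each). The share of a library's sum that came from Mmp14 averaged 51.8% over the OVX8_SCI7 libraries, 36.4% over OVX2_SCI7 and 39.9% over SCI7. The Adamts genes summed to 214 ± 38.8 TPM in OVX8_SCI7, 170.4 ± 54.6 in OVX2_SCI7 and 152 ± 47.5 in SCI7. The Timps summed to 621 ± 59.1 TPM in OVX8_SCI7, 564 ± 108 in OVX2_SCI7 and 582 ± 101 in SCI7. Timp2 made up 64.3% of the Timp sum in OVX8_SCI7, 60.9% in OVX2_SCI7 and 52.5% in SCI7, averaged over libraries. The ratio of summed Mmp to summed Timp level ran from 1.2 to 1.64 in OVX8_SCI7, from 0.317 to 1.424 in OVX2_SCI7 and from 0.267 to 0.813 in SCI7, so that OVX2_SCI7 overlapped both other groups. Sums are given without a test, because the members were chosen with results of these data known.

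The comparison of OVX8_SCI7 with SCI7 asks how the lesion differs when the ovaries had been removed 8 weeks before the injury. Mmp15 and Mmp17, which sit in the cell membrane, and Mmp28, known as epilysin, were higher in OVX8_SCI7, and no member was lower. These were 3 of the 39 members tested, against 27.5% of the 17821 genes tested. By direction, 3 members were higher, against 11.9% of all genes, and 0 lower, against 15.6%. A call is an adjusted p under 0.05, from edgeR's quasi-likelihood test fitted to all 12 libraries and adjusted by Benjamini-Hochberg over all 17821 genes. The members' share was no larger than that of all genes in either direction. At an unadjusted p under 0.05, 10 members passed, against 43.2% of all genes, with 7 higher and 3 lower, against 20.6% and 22.6%.

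Mmp15 (ENSMUSG00000031790, chromosome 8), a membrane-type metalloprotease that cuts matrix at the cell surface, had 62.1, 87.5, 80.7 and 57.7 CPM in OVX8_SCI7, 55.7, 97.5, 76.1 and 53.7 CPM in OVX2_SCI7 and 43.0, 45.3, 34.5 and 42.6 CPM in SCI7. In CPM, every library from ovariectomised mice lay above every SCI7 library. In TPM, OVX2_SCI7 replicate 4 at 15.51 lay under SCI7 replicates 2 and 4 at 16.06 and 15.98. Its log2 fold change over SCI7 was 0.80 in OVX8_SCI7 (SE 0.21, edgeR adjusted p = 0.0199), and 0.77 in OVX2_SCI7 (SE 0.21, edgeR adjusted p = 0.0537). Its promoter stretch, printed above, held 70% G and C, and its transcript 59.6%.

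Mmp28 (ENSMUSG00000020682, chromosome 11), a secreted enzyme that furin-like convertases activate, had 10.4, 10.6, 10.2 and 8.42 CPM in OVX8_SCI7, 5.78, 11.4, 11.2 and 8.29 CPM in OVX2_SCI7 and 4.23, 5.69, 3.76 and 7.02 CPM in SCI7. The OVX8_SCI7 and SCI7 groups did not overlap, while 1 OVX2_SCI7 library fell inside the SCI7 range. On the log2 scale the fold change was 0.93 in OVX8_SCI7 over SCI7 (SE 0.25, edgeR adjusted p = 0.0221) and 0.82 in OVX2_SCI7 over SCI7 (SE 0.25, edgeR adjusted p = 0.0626). In the older GENCODE annotation at hand, 12.03% of its exon bases overlap 1700020L24Rik on the opposite strand, and whether counting used strand was not given, so reads of both genes cannot be told apart there.

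Mmp17 (ENSMUSG00000029436, chromosome 5), which is held in the membrane by a lipid anchor, had 19.7, 24.6, 27.6 and 17.0 CPM in OVX8_SCI7, 17.2, 29.8, 18.5 and 18.8 CPM in OVX2_SCI7 and 13.8, 12.03, 17.6 and 10.95 CPM in SCI7. OVX8_SCI7 replicate 4 and OVX2_SCI7 replicate 1 lay just under the highest SCI7 library, so the groups overlapped. Fitted log2 fold changes were 0.71 in OVX8_SCI7 over SCI7 (SE 0.23, edgeR adjusted p = 0.0382) and 0.63 in OVX2_SCI7 over SCI7 (SE 0.23, edgeR adjusted p = 0.0865).

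All 3 calls were lost under an offset that removes, library by library, the trend of counts on transcript GC content and length, where the log2 fold changes of OVX8_SCI7 over SCI7 were 0.05 for Mmp15 (SE 0.13), 0.27 for Mmp28 (SE 0.17) and 0.16 for Mmp17 (SE 0.18). Without OVX8_SCI7 replicate 2, no member and 0% of all genes were called, and without replicate 3, no member and 6.71% of all genes. The mitochondrial share of counts also moved with these groups, and its part in the calls was not tested.

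**Figure D2:**
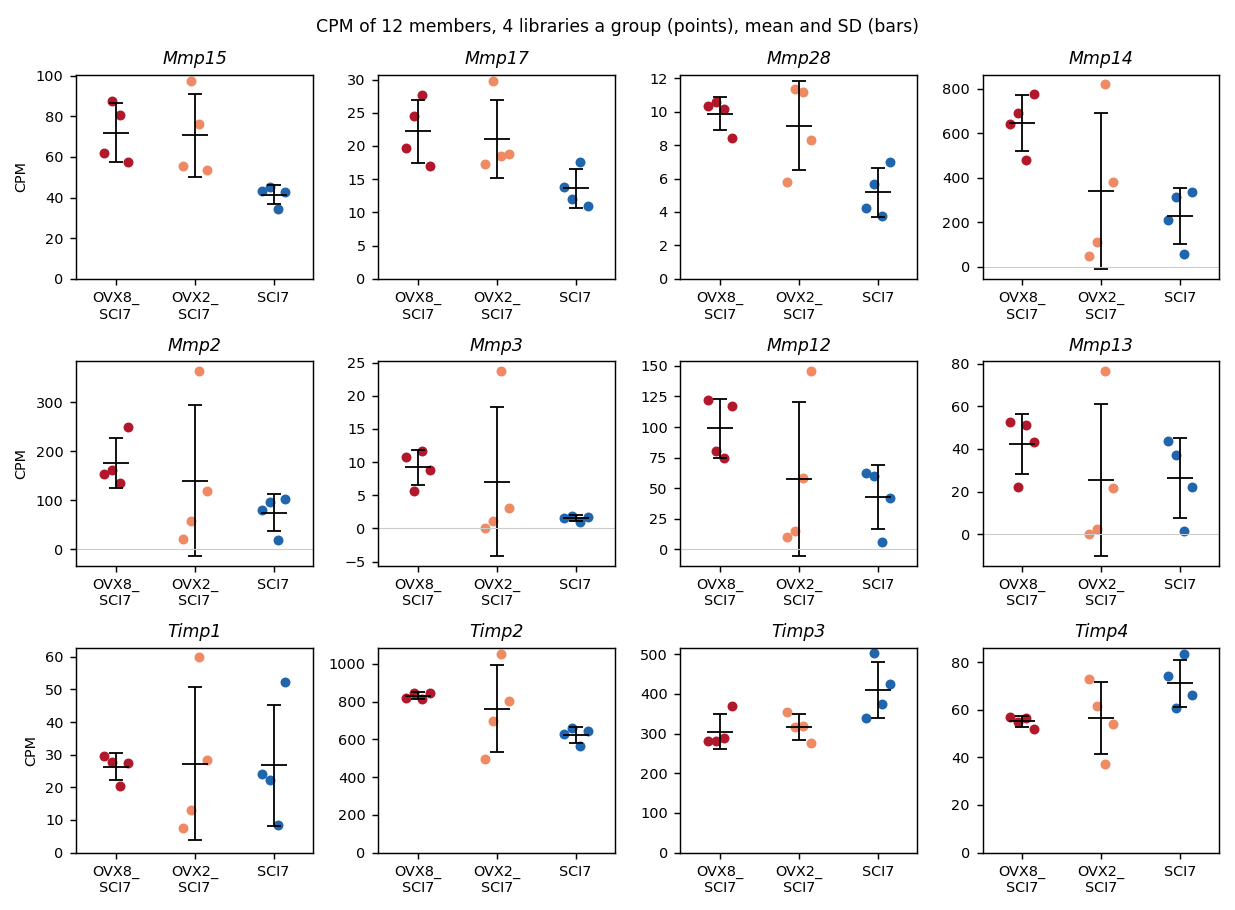
CPM of 12 members in each library (points, 4 a group) with the group mean and SD (black bars), the OVX8_SCI7 group at left, then OVX2_SCI7, then SCI7, each panel on its own linear scale. In the Mmp15 panel all 8 points of ovariectomised mice lie above the SCI7 points, whereas in the Mmp14, Mmp2, Mmp3 and Mmp13 panels the OVX2_SCI7 points hold both the highest and nearly the lowest values.

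Larger fold changes than those of the called genes were found in members whose libraries varied more. In CPM, all 4 OVX8_SCI7 libraries lay above all 4 SCI7 libraries in 13 of the 39 members, against 19.6% of all genes tested. In 1 member, Timp4, all lay below, against 19.6% as well. In TPM, Adamts10, Adamts17 and Mmp23 among the 13 overlapped, with OVX8_SCI7 replicate 1 under the highest SCI7 library. The 13 were Mmp2, Mmp3, Mmp12, Mmp14, Mmp15, Mmp23, Mmp28, Adamts2, Adamts7, Adamts10, Adamts15, Adamts17 and Timp2. Only Mmp15 and Mmp28 among them passed the test, in which the spread of the OVX2_SCI7 libraries also counts. Over the 39 members the median log2 fold change was 0.52, with 28 of 39 above 0, beside a median of 0.01 and 50.9% above 0 for all genes. When the 8 libraries of this comparison were fitted alone, 15 members were called, against 42.9% of all genes, with 12 higher and 3 lower (Adamts5, Mmp16 and Timp4).

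Mmp14, the membrane-type enzyme that opens the Mmp2 precursor, had 644, 693, 479 and 779 CPM in OVX8_SCI7, 47.4, 111, 823 and 381 CPM in OVX2_SCI7 and 212, 313, 56.1 and 336 CPM in SCI7. OVX8_SCI7 stood above SCI7 in every library, and OVX2_SCI7 held both the highest and the lowest library of all. Mmp14 had a log2 fold change of 1.503 in OVX8_SCI7 over SCI7 (SE 0.74, edgeR adjusted p = 0.137) and 0.57 in OVX2_SCI7 over SCI7 (SE 0.72, edgeR adjusted p = 0.597), so neither passed.

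Mmp2, the gelatinase that Mmp14 opens, had 155, 162, 135 and 249.9 CPM in OVX8_SCI7, 21.5, 57.6, 365 and 119 CPM in OVX2_SCI7 and 80.2, 97.7, 19.4 and 102 CPM in SCI7. As for Mmp14, OVX8_SCI7 stood above SCI7 in every library and OVX2_SCI7 replicate 3 was the highest of the 12. The log2 fold change of OVX8_SCI7 over SCI7 was 1.23 (SE 0.71, edgeR adjusted p = 0.201). Mmp9, the gelatinase best known from neutrophils and barrier opening, had 8.42, 15.03, 23.1 and 11.5 CPM in OVX8_SCI7, 12.5, 8.21, 19.3 and 9.95 CPM in OVX2_SCI7 and 7.82, 8.97, 8.83 and 9.49 CPM in SCI7. The SCI7 libraries were close together at the low end and overlapped both other groups (log2 fold change 0.72 in OVX8_SCI7 over SCI7, SE 0.32, edgeR adjusted p = 0.1004).

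Mmp3, stromelysin-1, which activates other metalloproteases, had the largest fold change of the 39 members. It had 10.8, 5.68, 11.7 and 8.75 CPM in OVX8_SCI7, 0.0530, 1.16, 23.8 and 3.11 CPM in OVX2_SCI7 and 1.58, 1.93, 0.982 and 1.77 CPM in SCI7. All OVX8_SCI7 libraries lay above all SCI7 libraries, and the OVX2_SCI7 libraries spread from under the floor of detection to the highest value of the 12. Mmp3 had a log2 fold change of 2.55 in OVX8_SCI7 over SCI7 (SE 1.04, edgeR adjusted p = 0.0815), and 2.81 with the GC and length offset. In OVX2_SCI7 over SCI7 it was 2.16 (SE 1.03, edgeR adjusted p = 0.167), and -0.12 without OVX2_SCI7 replicate 3.

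The other tested Mmp genes of chromosome 9 (Mmp8, Mmp10, Mmp12, Mmp13 and Mmp27) were not called by edgeR in any comparison. Mmp12, the elastase of macrophages, had 122, 80.7, 75.0 and 117 CPM in OVX8_SCI7, 10.1, 14.6, 58.6 and 146 CPM in OVX2_SCI7 and 62.6, 59.9, 6.11 and 41.9 CPM in SCI7 (log2 fold change 1.21 in OVX8_SCI7 over SCI7, SE 0.78, edgeR adjusted p = 0.251). Mmp13, a collagenase of bone and remodelling tissue, had 52.7, 22.0, 51.2 and 43.4 CPM in OVX8_SCI7, 0.371, 2.37, 76.6 and 21.7 CPM in OVX2_SCI7 and 43.9, 37.1, 1.69 and 22.2 CPM in SCI7, the widest spread of the 39 members. Mmp8, the collagenase of neutrophil granules, had 13.5, 12.3, 11.7 and 18.5 CPM in OVX8_SCI7, 8.38, 2.55, 10.6 and 17.2 CPM in OVX2_SCI7 and 13.8, 15.5, 8.73 and 17.0 CPM in SCI7. OVX8_SCI7 and SCI7 overlapped in Mmp13 and Mmp8 and did not in Mmp12. Mmp10, stromelysin-2, was low at 1.15 to 1.45 CPM in OVX8_SCI7, 0 to 1.81 in OVX2_SCI7 and 0.0545 to 5.05 in SCI7.

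Among the other membrane-type enzymes, Mmp16, found in nervous tissue, had 13.8, 12.3, 13.4 and 18.4 CPM in OVX8_SCI7, 14.3, 14.02, 17.6 and 11.8 CPM in OVX2_SCI7 and 17.0, 21.0, 19.2 and 22.3 CPM in SCI7. SCI7 libraries were the higher ones apart from 1 overlap with OVX8_SCI7 and 1 with OVX2_SCI7. The log2 fold change was -0.46 in both OVX8_SCI7 and OVX2_SCI7 over SCI7 (SE 0.17 each, edgeR adjusted p = 0.0637 and 0.0943), and 0.14 and 0.10 with the GC and length offset. Mmp25, an enzyme of leukocytes, had 1.90, 3.73, 2.198 and 4.64 CPM in OVX8_SCI7, 2.23, 11.7, 3.48 and 3.37 CPM in OVX2_SCI7 and 2.22, 3.01, 3.65 and 3.74 CPM in SCI7, with OVX2_SCI7 replicate 2 standing apart. Mmp24 was at 8.69 to 17.3 CPM in OVX8_SCI7, 7.88 to 23.0 in OVX2_SCI7 and 7.67 to 16.2 in SCI7. Mmp23, a membrane-bound enzyme of unusual domain structure, had 14.9, 15.6, 12.04 and 18.4 CPM in OVX8_SCI7, 2.28, 6.96, 35.1 and 12.8 CPM in OVX2_SCI7 and 8.45, 8.59, 2.62 and 11.7 CPM in SCI7 (log2 fold change 0.95 in OVX8_SCI7 over SCI7, SE 0.64, edgeR adjusted p = 0.270). The other Mmp genes tested, Mmp11, Mmp19 and Mmp27, had log2 fold changes of 0.65, 0.03 and 0.64 in OVX8_SCI7 over SCI7, none of them called.

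**Figure D3:**
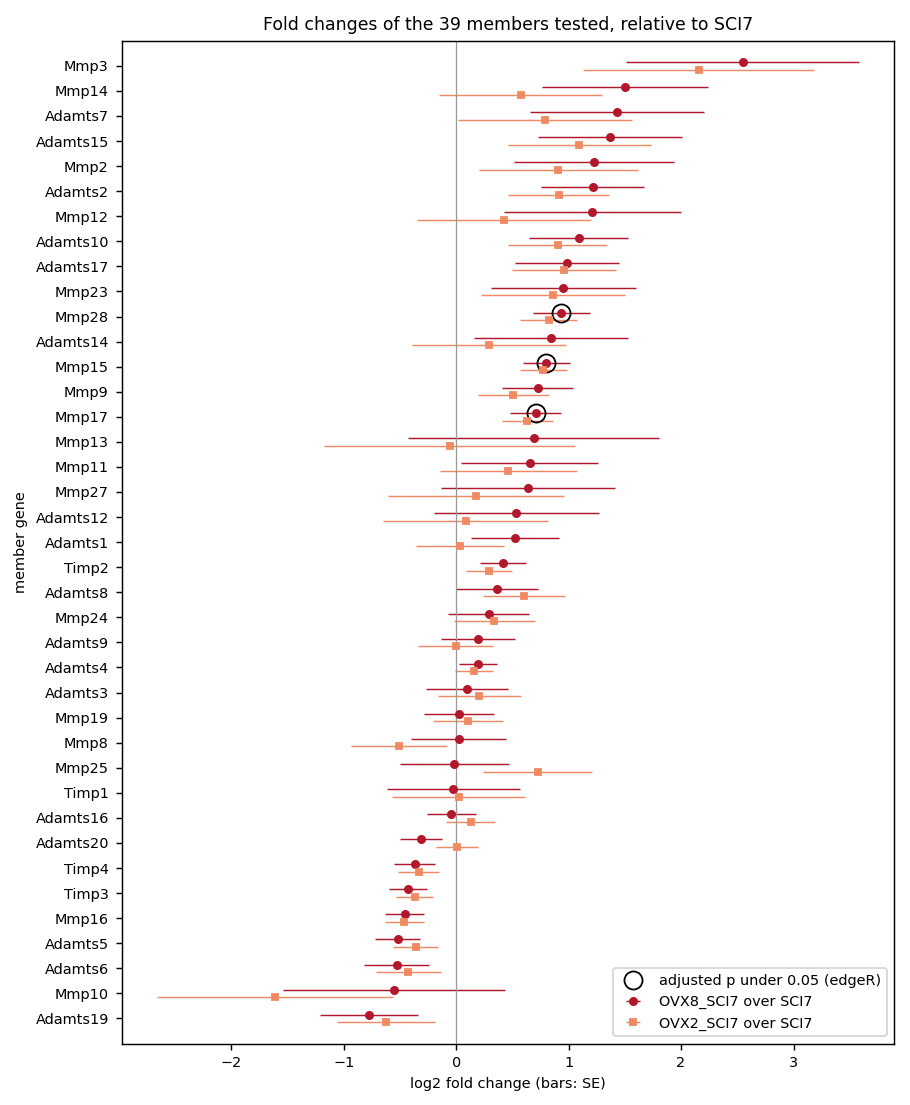
Log2 fold change over SCI7 (x axis, bars are standard errors) of the 39 members tested, for OVX8_SCI7 (circles) and OVX2_SCI7 (squares), both set against the same 4 SCI7 libraries. Mmp28, Mmp15 and Mmp17 are the ringed calls, with short bars, while Mmp3 at 2.55 and Mmp14 at 1.503 lie farther out with long bars.

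No Adamts gene was called by edgeR in any comparison, against 27.5% of all genes in OVX8_SCI7 over SCI7. At an unadjusted p under 0.05, 2 of 17 were higher and 1 lower in that comparison, against 20.6% and 22.6% of all genes. DESeq2 called 3 of the 17 (Adamts2 and Adamts10 higher, Adamts5 lower), against 35.9% of all genes, and limma-voom called 0, against 27.4%. The aggrecanases and related enzymes that cut proteoglycans of the lesion scar were Adamts1, Adamts4, Adamts5, Adamts8, Adamts9, Adamts15 and Adamts20. Adamts4 had 105, 131, 133 and 103 CPM in OVX8_SCI7, 120.3, 131, 86.4 and 124 CPM in OVX2_SCI7 and 101, 109, 85.1 and 119 CPM in SCI7 (log2 fold change 0.19 in OVX8_SCI7 over SCI7, SE 0.17, edgeR adjusted p = 0.388, and -0.31 with the GC and length offset). Adamts5 had 19.1, 23.4, 23.2 and 28.0 CPM in OVX8_SCI7, 22.2, 27.7, 34.7 and 20.2 CPM in OVX2_SCI7 and 30.6, 43.3, 27.8 and 32.8 CPM in SCI7 (log2 fold change -0.52, SE 0.20, edgeR adjusted p = 0.0695 in OVX8_SCI7 over SCI7, and -0.03 with the GC and length offset). The groups overlapped for both genes. Adamts1 had 97.7, 112, 98.4 and 147 CPM in OVX8_SCI7, 48.0, 48.1, 156 and 71.4 CPM in OVX2_SCI7 and 55.9, 104, 47.1 and 109.5 CPM in SCI7, with a log2 fold change of 0.52 in OVX8_SCI7 over SCI7 (SE 0.39, edgeR adjusted p = 0.317). Adamts15 averaged 34.8 ± 5.76 CPM in OVX8_SCI7, 28.8 ± 29.1 in OVX2_SCI7 and 13.5 ± 5.47 in SCI7 (SD, n = 4 each), without overlap between OVX8_SCI7 and SCI7 (log2 fold change 1.37, SE 0.64, edgeR adjusted p = 0.121). Adamts8 and Adamts9 had log2 fold changes of 0.37 and 0.19 in OVX8_SCI7 over SCI7. Adamts20, an enzyme needed for the spread of pigment cells in mouse skin, was 16.7 ± 1.14 CPM in OVX8_SCI7, 20.8 ± 5.64 in OVX2_SCI7 and 20.7 ± 2.79 in SCI7 (SD, n = 4 each), and gave the smallest p of the members in OVX8_SCI7 against OVX2_SCI7.

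Adamts2, Adamts3 and Adamts14 remove the amino-terminal propeptide of fibrillar procollagens. Adamts2 had 91.0, 97.7, 82.9 and 122 CPM in OVX8_SCI7, 27.9, 54.3, 174 and 62.4 CPM in OVX2_SCI7 and 36.2, 57.7, 25.7 and 50.02 CPM in SCI7. The OVX8_SCI7 libraries lay above the SCI7 libraries without overlap (log2 fold change 1.21, SE 0.46, edgeR adjusted p = 0.0638). Adamts10, which takes part in the assembly of fibrillin microfibrils, had 59.5, 79.0, 64.7 and 81.6 CPM in OVX8_SCI7, 20.3, 42.0, 125 and 62.6 CPM in OVX2_SCI7 and 22.2, 39.5, 24.8 and 47.2 CPM in SCI7. Its OVX8_SCI7 and SCI7 libraries did not overlap in CPM either (log2 fold change 1.09, SE 0.44, edgeR adjusted p = 0.0807). In TPM, OVX8_SCI7 replicate 1 at 28.69 lay under SCI7 replicate 4 at 30.56. Adamts14 and Adamts3 had log2 fold changes of 0.84 and 0.09 in OVX8_SCI7 over SCI7. Adamts7 and Adamts12, which cut cartilage oligomeric matrix protein, averaged 14.5 ± 3.31 and 58.0 ± 23.5 CPM in OVX8_SCI7, 9.29 ± 9.33 and 42.4 ± 42.5 CPM in OVX2_SCI7, and 5.36 ± 3.04 and 40.0 ± 25.7 CPM in SCI7 (SD, n = 4 each). Adamts7 libraries of OVX8_SCI7 lay above those of SCI7 without overlap, and those of Adamts12 overlapped. Adamts17, a relative of Adamts10, had 5.42, 5.34, 5.34 and 5.34 CPM in OVX8_SCI7, 2.39, 4.64, 11.8 and 2.28 CPM in OVX2_SCI7 and 2.64, 3.71, 2.78 and 1.72 CPM in SCI7. In CPM the OVX8_SCI7 values were nearly equal and above those of SCI7, whereas OVX2_SCI7 held the highest library of the 12 and 2 libraries within the SCI7 range (log2 fold change 0.98 in OVX8_SCI7 over SCI7, SE 0.46, edgeR adjusted p = 0.123). In TPM they were 1.35, 1.51, 1.99 and 1.97 in OVX8_SCI7 and 0.65, 1.07, 1.62 and 0.6 in SCI7, neither nearly equal nor free of overlap. Adamts6, Adamts16 and Adamts19 had log2 fold changes of -0.53, -0.05 and -0.78 in OVX8_SCI7 over SCI7. Over the 17 Adamts genes tested the log2 fold change of OVX8_SCI7 over SCI7 ran from -0.78 (Adamts19) to 1.43 (Adamts7), with a median of 0.37 and 12 of 17 above 0.

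None of the 4 Timps was called by edgeR in any comparison, against 27.5% of all genes in OVX8_SCI7 over SCI7. At an unadjusted p under 0.05 there was 1, Timp3, lower in OVX8_SCI7 and in OVX2_SCI7 over SCI7. Of all genes, 22.6% and 15% were lower at that p. DESeq2 called Timp3 lower in OVX8_SCI7 over SCI7, against 35.9% of all genes called by it, and limma-voom called 0, against 27.4%. Timp2 had 821, 847, 814 and 848 CPM in OVX8_SCI7, 496, 698, 1055 and 804 CPM in OVX2_SCI7 and 626, 662, 565 and 643 CPM in SCI7. All OVX8_SCI7 libraries lay above all SCI7 libraries, and the log2 fold change was 0.42 (SE 0.20, edgeR adjusted p = 0.138), or 0.02 with the GC and length offset. Timp1, the soluble inhibitor induced in inflamed tissue, had 29.7, 27.7, 20.3 and 27.4 CPM in OVX8_SCI7, 7.53, 13.0, 59.8 and 28.4 CPM in OVX2_SCI7 and 24.0, 22.2, 8.34 and 52.4 CPM in SCI7. The OVX8_SCI7 values fell inside the range of both other groups (log2 fold change -0.03 over SCI7, SE 0.59, edgeR adjusted p = 0.979).

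Timp3, which binds to the matrix and also blocks Adamts enzymes, had 280.2, 280.4, 289 and 371 CPM in OVX8_SCI7, 356, 316, 319.7 and 277 CPM in OVX2_SCI7 and 338, 503, 374 and 424 CPM in SCI7. All OVX8_SCI7 libraries other than replicate 4 lay under every SCI7 library. The log2 fold change over SCI7 was -0.43 in OVX8_SCI7 (SE 0.17, edgeR adjusted p = 0.0722) and -0.37 in OVX2_SCI7 (SE 0.17, edgeR adjusted p = 0.146). Timp4, the inhibitor most restricted to brain, heart and a few other tissues, had 57.1, 54.7, 56.7 and 51.8 CPM in OVX8_SCI7, 73.1, 61.8, 37.2 and 54.0 CPM in OVX2_SCI7 and 74.1, 60.7, 83.5 and 66.4 CPM in SCI7. All OVX8_SCI7 libraries lay under all SCI7 libraries (log2 fold change -0.37, SE 0.18, edgeR adjusted p = 0.142).

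Timp1, Timp3 and Timp4 lie inside introns of the synapsin genes Syn1, Syn3 and Syn2, which encode proteins of synaptic vesicles. In the older annotation, 21.3% of the exon bases of Timp3 overlap exons of Syn3 on the opposite strand and 1.53% of those of Timp4 overlap Syn2, so for Timp3 reads of both genes may be mixed where strand was not used. Syn3 had 6.39, 9.90, 12.2 and 6.05 CPM in OVX8_SCI7, 10.1, 11.05, 3.06 and 5.49 CPM in OVX2_SCI7 and 5.34, 6.50, 8.998 and 4.34 CPM in SCI7, and every one of these values was far under that of Timp3 in the same library. Exons of opposite-strand genes also overlap 22.3% of the exon bases of Mmp19 (Tmem198b), 13.6% of Mmp24 (BC029722) and 5.58% of Mmp11 (Chchd10), and under the same limit these levels may hold reads of both genes. None of the 3 synapsin genes was called by edgeR, DESeq2 or limma-voom, or had an unadjusted p under 0.05 in edgeR. Of all genes, 27.5% were called by edgeR in OVX8_SCI7 over SCI7 and 43.2% had such a p.

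The comparison of OVX2_SCI7 with SCI7 asks the same of ovaries removed 2 weeks before the injury, against the same 4 SCI7 libraries. No member and no gene passed the edgeR test (0 of 39 members, 0% of all genes), and at an unadjusted p under 0.05 there were 5 members and 32.5% of all genes. Mmp15, Mmp17 and Mmp28 were the 3 of these with a positive fold change, and Mmp16 and Timp3 the 2 with a negative one. By direction these were 17.5% and 15% of all genes. DESeq2 called Mmp15, Mmp17 and Mmp28, 3 members, against 20.8% of all genes, limma-voom 0 members against 3.96%, and limma-trend on log2(TPM + 1) 0 members against 0.0898%. In CPM, the 4 OVX2_SCI7 libraries were higher than each SCI7 library in 1 member, Mmp15, as in 6.12% of all genes. In 0 members they were all lower, as in 6.3%. Over the 39 members the median log2 fold change was 0.29, beside 0.04 for all genes. Without OVX2_SCI7 replicate 1, edgeR called 8 members, against 34.7% of all genes. Without replicates 1 and 2 of OVX2_SCI7 together, it called 12 members, against 38.7% of all genes.

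OVX8_SCI7 set against OVX2_SCI7 gave no call, with 0 of 39 members and 0% of all genes in edgeR, and at an unadjusted p under 0.05 there were 0 members and 2.21% of all genes (0.32% higher and 1.89% lower). DESeq2 also called 0 members, against 0.0337% of all genes, and limma-voom 0, against 0%. In no member did all 4 OVX8_SCI7 libraries lie above or below all 4 OVX2_SCI7 libraries, as they did in 0.241% and 1.08% of all genes. The log2 fold changes of the called genes were 0.03 for Mmp15 (SE 0.21), 0.07 for Mmp17 (SE 0.23) and 0.11 for Mmp28 (SE 0.25), while that of Mmp14 was 0.93 (SE 0.73). A joint test of the 3 groups in edgeR called Mmp15 (adjusted p = 0.0385) and Mmp28 (adjusted p = 0.0485), 2 of 39 members, against 14.9% of all genes, and at an unadjusted p under 0.05 there were 5 members, against 35.3%.

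The spread between mice, pooled over the 3 groups, was wide for these genes. The within-group SD of log2 CPM was 1 value a gene, from the mean of the variances of the 3 groups. It does not show which group the spread came from. This SD had a median of 0.602 over the 39 members and 0.321 over all 17821 genes. It was above 1 in 12 members against 2.2% of all genes. Mmp13 had the widest SD at 2.07, and Timp3 the narrowest at 0.201. In 16 members the 3 lowest of the 12 libraries were OVX2_SCI7 replicates 1 and 2 and SCI7 replicate 3, against 9% of all genes. These were Mmp2, Mmp3, Mmp8, Mmp10, Mmp11, Mmp12, Mmp13, Mmp14, Mmp19, Mmp23, Mmp27, Adamts1, Adamts7, Adamts9, Adamts12 and Timp1, chosen here after their values were seen. OVX2_SCI7 replicate 3 was the highest of the 12 libraries for 19 of the 39 members, and for 3501 of all 17821 genes.

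Markers of the cells that fill a lesion were low in the same libraries. The 8 lesion macrophage markers summed to 12945, 12163, 9895 and 15862 TPM in OVX8_SCI7, 1323, 2731, 9447 and 17162 TPM in OVX2_SCI7 and 9049.6, 11801, 1146 and 16749 TPM in SCI7. The 7 fibroblast markers summed to 3184, 3728, 3088 and 6427 TPM in OVX8_SCI7, 478, 1108, 8164 and 2229 TPM in OVX2_SCI7 and 2115, 3392, 622 and 3478 TPM in SCI7. OVX2_SCI7 replicates 1 and 2 and SCI7 replicate 3 were the lowest for both lists and the highest for neurons, whose 6 markers summed to 1222, 1586, 1979.6 and 1058 TPM in OVX8_SCI7, 3183, 2534, 511 and 1012 TPM in OVX2_SCI7 and 1901, 1661, 3192 and 955 TPM in SCI7. The 10 neutrophil markers, Mmp8 among them, summed to 228 to 420.1 TPM in OVX8_SCI7, 178 to 398 in OVX2_SCI7 and 239 to 369.6 in SCI7, without that pattern in the sum. Mmp8 alone had its lowest CPM in OVX2_SCI7 replicates 1 and 2 and SCI7 replicate 3. No marker of these 4 lists was at 0 in all libraries, and of the macrophage list 1 of 8 was called higher in OVX8_SCI7 over SCI7, of the fibroblast list 0 of 7. Among the other marker lists, 2 of 6 microglial, 2 of 5 skeletal muscle, 1 of 6 pericyte and smooth muscle and 1 of 5 ependymal markers were called higher in that comparison, against 11.9% of all genes. Called lower were 1 microglial and 1 astrocyte marker, against 15.6% of all genes. Their part in the levels of the enzymes was not tested, and in bulk tissue fewer cells of a type and less RNA per cell cannot be told apart.

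**Figure D4:**
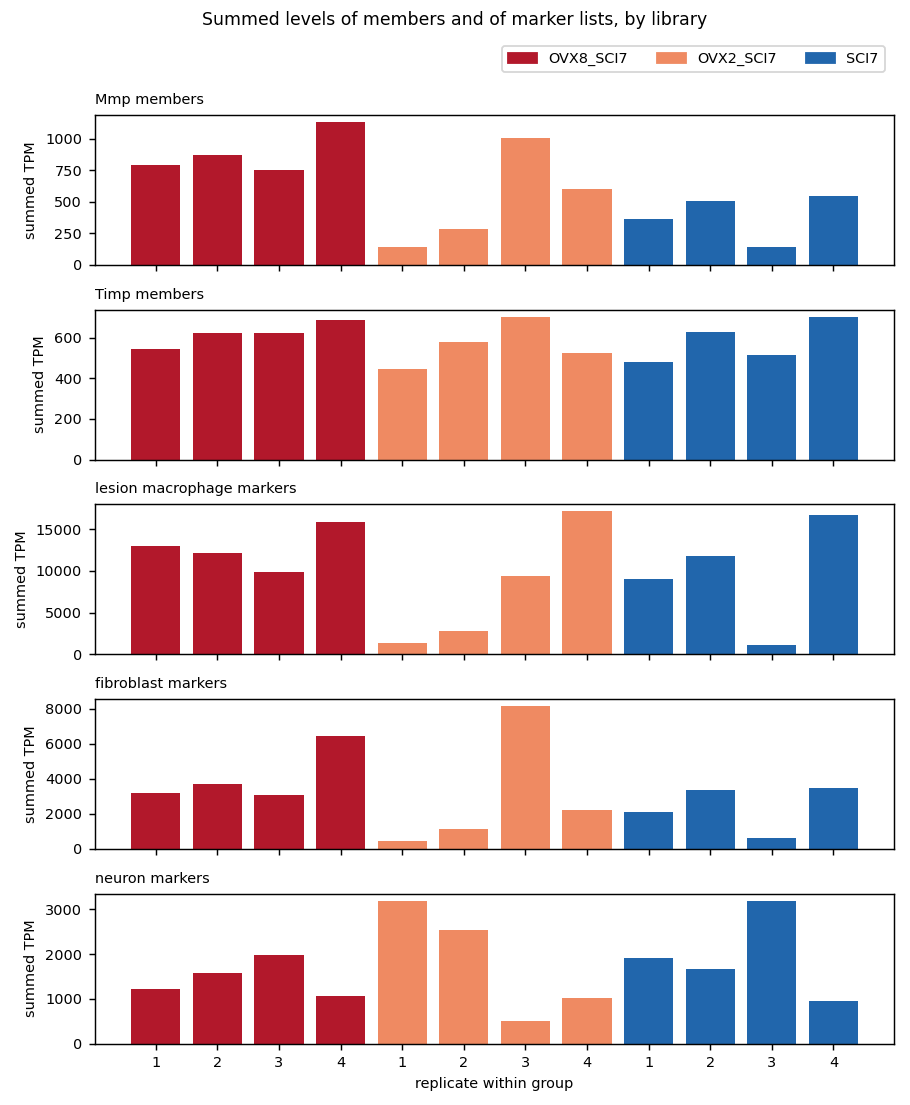
Summed TPM by library (bars, 4 replicates a group, linear axes from 0) of the 23 Mmp genes, the 4 Timp genes and the marker lists of lesion macrophages, fibroblasts and neurons. Mmp, macrophage and fibroblast sums are low and neuron sums high in OVX2_SCI7 replicates 1 and 2 and in SCI7 replicate 3, while Timp sums stay between 447 and 705 TPM.

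Fold change followed transcript GC content among the members, less closely than over all protein-coding genes. The Spearman correlation across the 39 members was 0.47 for OVX8_SCI7 over SCI7 and 0.65 for OVX2_SCI7 over SCI7, and across 15087 protein-coding genes it was 0.82 and 0.79, with the same SCI7 libraries in both comparisons. The 3 called genes had transcripts of 59.6% (Mmp15), 57.9% (Mmp28) and 55.9% (Mmp17) G and C, above the members' median of 52.8%. Mmp16 at 42.2%, Adamts5 at 43.7% and Timp3 at 46.8%, which had negative fold changes, were below it. Mmp3 at 45.9% and Mmp12 at 40.1% departed from this order with positive fold changes, which were 2.81 (SE 1.05) and 2.01 (SE 0.83) in OVX8_SCI7 over SCI7 once the offset was applied. Mmp13 at 41.7%, Mmp27 at 42.6% and Adamts12 at 46.8% departed too, with 0.69, 0.64 and 0.54 in OVX8_SCI7 over SCI7 without the offset. With the offset 0 of 39 members and 0 of all genes were called in OVX8_SCI7 over SCI7.

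**Figure D5:**
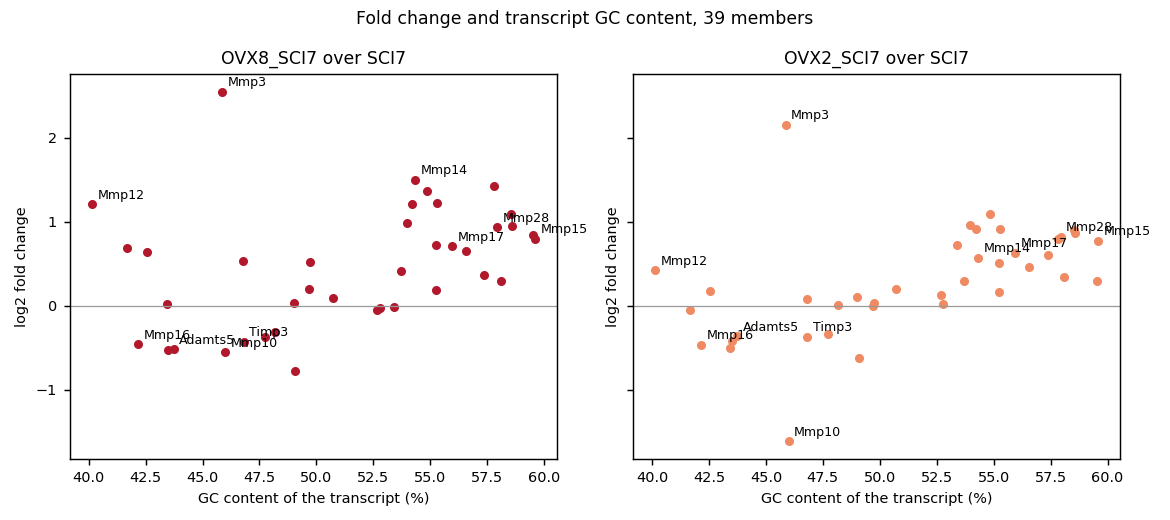
Log2 fold change (y axis) against the GC content of the transcript (x axis, percent) for the 39 members, OVX8_SCI7 over SCI7 at left and OVX2_SCI7 over SCI7 at right. Most points climb from lower left to upper right, and Mmp3 and Mmp12 lie above that band in the left panel.

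Genes that act with these enzymes were read in OVX8_SCI7 over SCI7 against the 11.9% of all genes called higher and the 15.6% called lower. Of 17 tested activators, receptors and other inhibitors, 2 were higher and 0 lower. Lrp1, an endocytic receptor that clears metalloproteases and Timps, had 1322, 1539, 1481 and 1526 CPM in OVX8_SCI7, 536, 961, 1481 and 1455 CPM in OVX2_SCI7 and 451, 769.7, 498 and 962 CPM in SCI7 (log2 fold change 1.13, SE 0.33, edgeR adjusted p = 0.0275, and 0.50 with the GC and length offset). Bsg, the membrane protein also called EMMPRIN for inducing metalloproteases, averaged 450.5 ± 48.0 CPM in OVX8_SCI7, 452 ± 111 in OVX2_SCI7 and 303 ± 36.4 in SCI7 (SD, n = 4 each). Its log2 fold change was 0.57 (SE 0.19, edgeR adjusted p = 0.0445), and it turned to -0.13 with the GC and length offset. Of 8 related Adam proteases, Adam15 was higher (log2 fold change 0.88, SE 0.21, edgeR adjusted p = 0.0161) and Adam10, a sheddase of Notch and cadherins, lower (-0.63, SE 0.20, edgeR adjusted p = 0.0395). With the offset these were 0.13 for Adam15 and -0.02 for Adam10.

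Of 6 Adamts-like proteins, which have the Adamts modules without the protease, 3 were higher in OVX8_SCI7 over SCI7, against 11.9% of all genes. These were Adamtsl4 at 56.2 ± 7.54 CPM in OVX8_SCI7, 57.2 ± 12.01 in OVX2_SCI7 and 31.4 ± 4.09 in SCI7 (edgeR adjusted p = 0.0143), Adamtsl5 (log2 fold change 0.94, edgeR adjusted p = 0.0169) and Papln (0.86, edgeR adjusted p = 0.0339). With the GC and length offset their log2 fold changes were 0.07 for Adamtsl4, 0.06 for Adamtsl5 and 0.07 for Papln. None of 10 substrates of the enzymes was called by edgeR. At an unadjusted p under 0.05 there were 3, all higher, against 20.6% of all genes higher and 43.2% in either direction. DESeq2 called 2 of the substrates higher, against 35.9% of all genes in either direction, and limma-voom 1, against 27.4%. Among them, Bcan, the brevican core protein of perineuronal matrix, averaged 191 ± 47.2 CPM in OVX8_SCI7, 190.0 ± 59.5 in OVX2_SCI7 and 122 ± 12.8 in SCI7 (SD, n = 4 each; edgeR adjusted p = 0.0565 in OVX8_SCI7 over SCI7), and Lama5, a laminin chain, 30.7 ± 6.14 CPM in OVX8_SCI7, 31.0 ± 8.48 in OVX2_SCI7 and 17.8 ± 6.92 in SCI7 (edgeR adjusted p = 0.0595). Their log2 fold changes in OVX8_SCI7 over SCI7 were 0.65 for Bcan and 0.79 for Lama5, and with the GC and length offset that of Bcan turned to -0.19 and that of Lama5 was 0.07. None of these lists had an edgeR call in OVX2_SCI7 over SCI7 or in OVX8_SCI7 over OVX2_SCI7, where 0% of all genes had.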

How the data were processed

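Spinal cord RNA of 12 mice was sequenced as paired-end libraries. Per the submitters' processing notes, the tools were fastp 0.23.4, HISAT2 2.2.1, RSEM 1.3.3, DESeq2 1.42.0, edgeR and limma, and the build GRCm39. The authors deposited expected counts (estimated counts of RSEM, per the submitters' processing notes), TPM and FPKM, for 57180 genes each. The library kit and the use of strand in counting are not given in the sources used here. 9 group-mean columns were not used.

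Expected counts were rounded, filtered with filterByExpr and scaled by TMM in edgeR 4.0.16 (R 4.3.3), leaving 17821 genes. All 12 libraries entered a robust quasi-likelihood fit with group as the only term, with a Benjamini-Hochberg threshold of 0.05. The deposited TPM were used for levels and sums, and the deposited FPKM only for sums as an alternative. GC content and length came from GENCODE vM21, an older build than that of the authors. The other settings were DESeq2 1.42.0, limma 3.58.1 (voom, and trend on log2 TPM with a pseudocount of 1 or 0.1), DESeq2 size factors, no filter or a stricter filter (1 CPM in 4 libraries, mean of 50 counts), the libraries of a comparison alone, a replicate block, an offset for GC content and length (natural spline with 5 degrees of freedom over genes of at least 5 CPM), and libraries left out. The fit was tested on simulated data. The p-values measure the spread between these mice.

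The members and the lists were chosen with earlier results of these data known. Members named with values were every called member, the 6 with the smallest p in each comparison with fewer than 5 calls, the highest of each role list, the 4 Timps, and Mmp2, Mmp3, Mmp9, Mmp12, Mmp13, Mmp14, Adamts1, Adamts4 and Adamts5. Other lists gave their called genes, or else the 2 with the smallest p. Further members named in the text were chosen after their values were seen.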

Additional observations from a re-analysis of the deposited data

Results flagged for a closer look

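In 4 of the 69 groups examined (23 named members in 3 groups of 4), 1 library stood apart from the rest of its group by more than the 95% critical value of Dixon's gap-to-range test. The critical value flags about 1 in 20 groups where groups are independent. These genes were measured in the same libraries, so the number cannot be read against that rate. Mmp3 had 23.8 CPM in OVX2_SCI7 replicate 3, against 0.0530 to 3.11 in the other libraries of the group. Mmp17 had 29.8 CPM in OVX2_SCI7 replicate 2, against 17.2 to 18.8 in the others. Mmp25 had 11.7 CPM in the same library, against 2.23 to 3.48 in the others. Timp3 had 371 CPM in OVX8_SCI7 replicate 4, against 280.2 to 289 in the others.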

How the results depend on the processing

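Mmp15 was called higher in OVX8_SCI7 over SCI7 in 17 of 24 alternatives, Mmp28 in 16 and Mmp17 in 13, and their log2 fold changes stayed above 0 in all of them. Members called in OVX8_SCI7 over SCI7 were 5 with the stricter filter, 8 with DESeq2, 1 with limma-trend at either pseudocount, 15 with the 8 libraries of the comparison alone, 10 without OVX2_SCI7 replicates 1 and 2, 0 with the GC and length offset, 0 with the offset and the replicate block together, and 0 to 10 when each library was left out. All genes called were 3252 (9.74%) without the filter, 4628 (32.2%) with the stricter filter and 6405 (35.9%) with DESeq2. With limma-trend at pseudocounts of 1 and 0.1 they were 2973 (16.7%) and 2850 (16%), and with the 8 libraries alone 7424 (42.9%). They were 0 with the offset, 1 (0.00561%) with the offset and block, and 7720 (41.9%) without OVX2_SCI7 replicates 1 and 2. With a library left out they were 0 (without OVX8_SCI7 replicate 2) to 6706 (37.1%). The construction of the offset removes differences that follow GC content, and for the others the cause was not tested.

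In OVX2_SCI7 over SCI7, members called were 1 with the stricter filter, 3 with DESeq2, 12 without OVX2_SCI7 replicates 1 and 2, and 0 to 8 with a library left out (8 without OVX2_SCI7 replicate 1). All genes called were 14 (0.0419%) without the filter, 1148 (7.99%) with the stricter filter, 3706 (20.8%) with DESeq2 and 705 (3.96%) with limma-voom. They were 16 (0.0898%) and 12 (0.0673%) with limma-trend, 2 (0.0115%) with the 8 libraries alone and 8 (0.0449%) with the offset. Without both replicates they were 7139 (38.7%), and with a library left out 0 to 6264 (34.7%). In OVX8_SCI7 over OVX2_SCI7, members stayed at 0 in the alternatives run, and genes were 6 with DESeq2 and 0 to 1 with a library left out. The joint test called 1 member without the filter, against 4.11% of all genes. It called 0 members with the replicate block, 0 with the offset and 0 with both, against 0% of all genes each time. Without OVX2_SCI7 replicates 1 and 2 it called 12 members, against 41.1% of all genes. With a library left out it called 0 to 6 members, against 0 to 33.5% of all genes. Bsg turned to -0.13 with the offset, with or without the block. No other named gene that was called in the main edgeR fit turned. Mmp16 and Bcan, not called in that fit, were called in OVX8_SCI7 over SCI7 in 5 and 6 of 24 alternatives. With the offset they turned to 0.14 and -0.19. Without Timp2, the difference of the mean log2 summed Timp level was -0.30 in OVX8_SCI7 over SCI7, against 0.11 with it, and -0.33 in OVX2_SCI7 over SCI7, against -0.05 with it.

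Replicate numbers did not pair the mice. The correlation of same-numbered libraries ran from -0.69 to 0.57, and 3 of 12 libraries correlated best with their own number. With the replicate block, 3 members were called in OVX8_SCI7 over SCI7 (Mmp15, Mmp17 and Mmp28), against 3390 (19%) of all genes. At this depth, members near 1 CPM, such as Mmp10 and Adamts19, were measured with few counts. Many alternatives share libraries and are not independent.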
